A study of Mus musculus with 24 samples.

Results

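The aminoacyl-tRNA synthetase genes were taken as the protein-coding rows of the count table whose symbols follow the naming of that family, which gave 38 of 40173 genes. Of these, 21 encode cytosolic enzymes and 17, whose symbols end in 2, encode mitochondrial ones. Tarsl2 was kept with the cytosolic genes as a paralog of Tars. RNA came from eGFP-positive cells sorted from pancreata of mouse embryos at E15.5, with embryos of both sexes pooled. In this line eGFP stands in place of the Neurog3 (Ngn3) coding sequence, Neurog3 being the factor needed for endocrine commitment in the pancreas, and every dam and sire was Ngn3eGFP/+. Dams aged 6 weeks were put on a low-protein diet (LPD), a high-fat diet (HFD) or a normal diet (ND) for 2 weeks before mating and stayed on it until collection, while sires ate the control diet. By title there were 4 mutant LPD, 3 mutant HFD, 4 mutant ND, 4 control LPD, 3 control HFD and 3 control ND libraries, the last numbered 2 to 4, and values are listed in the order of these numbers. The design text gives Ngn3eGFP/eGFP embryos as the source of progenitors not yet committed and Ngn3eGFP/+ embryos as the source of committed cells. The genotype field, however, gives Ngn3eGFP/eGFP to libraries titled control and Ngn3eGFP/+ to those titled mutant. Neurog3 was read at 6.01 to 22.98 CPM in the 11 libraries titled mutant, against 85.0 to 205 CPM in the 10 titled control, which goes with the titles and against that field, so groups are called by title throughout.

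Each synthetase joins an amino acid to its transfer RNA and so supplies the ribosome with charged tRNA. The cytosolic and mitochondrial translation systems have mostly separate enzymes, although in mammals Gars and Kars each encode both forms. In mammals 8 of the cytosolic genes, Eprs, Iars, Lars, Mars, Qars, Rars, Kars and Dars, encode members of the multisynthetase complex, which is held together by the scaffold proteins encoded by Aimp1, Aimp2 and Eef1e1. When amino acids run short or the endoplasmic reticulum is stressed, the transcription factor ATF4 induces many cytosolic synthetase genes along with genes of amino acid synthesis and uptake. In mouse fibroblasts 12 of the cytosolic members are known ATF4 targets (Aars, Cars, Eprs, Gars, Iars, Lars, Mars, Nars, Sars, Tars, Wars and Yars). The pancreas is known for heavy protein synthesis in its acinar cells.

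The element through which ATF4 and its C/EBP partners act has the core TGATGNAA. It was searched on both strands of RefSeq promoter windows (GRCm38.p6), from 250 bases before to 50 bases after the gene start, which were matched for 28 of the 38 members, 27 by symbol and 1 by an older symbol. A match was found in 5 of the 8 cytosolic ATF4 targets with a window, in 0 of the 6 other cytosolic members and in 0 of the 14 mitochondrial members. Of all 27025 genes with a window, 4.51% held it. Eprs, Mars and Sars were the ATF4 targets whose windows held no match. The match nearest the start of each gene is given here with 10 bases on either side, read 5′ to 3′ on the strand that carries the motif, with the motif in capitals and the position of its middle counted from the RefSeq start. These sequences are shown because the genes that carry them did not move alike in the libraries described further on.
Aars (chr8:111033841-111033868, minus strand, motif at 13): cagagcgctcTGATGAAAagtgacccgc
Gars (chr6:55037961-55037988, minus strand, motif at -26): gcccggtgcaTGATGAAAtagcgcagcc
Iars (chr13:49682127-49682154, minus strand, motif at 11): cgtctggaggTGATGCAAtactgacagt
Tars (chr15:11399656-11399683, plus strand, motif at -11): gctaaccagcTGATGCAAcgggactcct
Yars (chr4:129189896-129189923, plus strand, motif at 7): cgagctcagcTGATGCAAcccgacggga
A match is a description of the letters in the window and not evidence of binding in these cells.

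All 38 members were read in every library, with a lowest count of 43, and all passed the filter on low counts. Total counts per library ran from 17922240 to 44688814. In 3 ND libraries (mutant ND 2, mutant ND 3 and control ND 2) 72.2% to 79.4% of reads were duplicates and the noncoding RNA Gm26917 took 32.7% to 66.9% of the counts, against 37.7% to 65.5% duplicates and 9.21% to 18.7% of counts in the other 18. By library number, 5 of the 7 ND libraries are numbered 25 or above and no HFD or LPD library is. Endocrine markers, 16 genes, summed to 48.5 to 462 CPM in titled mutant LPD, 53.2 to 157 in titled mutant HFD and 58.6 to 87.02 in titled mutant ND libraries, against 2479 to 5454, 2325 to 3944 and 4343 to 9529.7 CPM in titled control LPD, HFD and ND libraries, so the endocrine label is borne out by its markers in the libraries titled control. Acinar markers were high in every group although the label is islet progenitor: the 22 genes summed to 27517 to 37288 CPM in titled mutant LPD, 37212 to 39562 in titled mutant HFD and 14659 to 27397 in titled mutant ND libraries, and to 6118 to 18739, 25802 to 32108 and 7362 to 9706 CPM in titled control LPD, HFD and ND libraries. The labels do not say whether the replicates are separate litters, so p-values measure the spread between these libraries.

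Cytosolic synthetases were read at higher levels than mitochondrial ones. Levels between genes are given as CPM, scaled by TMM (trimmed mean of M values) and divided by gene length in kilobases. Over the 21 libraries the median cytosolic gene averaged 25.4 CPM per kb and the median mitochondrial gene 5.66 CPM per kb. Gars, for glycine, stood highest at 62.7 CPM per kb, followed by Vars, for valine, at 50.9, Kars, for lysine, at 42.9, Lars, for leucine, at 37.03 and Nars, for asparagine, at 34.02. Nars, Iars and Hars, ranked 5 to 7 at 34.02, 33.99 and 33.7 CPM per kb, differed by less than their SDs over libraries of 7.55, 7.88 and 7.97. Only Cars at 7.70 and Tarsl2 at 3.55 CPM per kb among the cytosolic genes lay below any mitochondrial mean, and Yars2, at 9.56 CPM per kb, was the highest mitochondrial gene. Nars2 was the lowest of all at 1.77 CPM per kb. Farsa and Farsb, which encode the paired subunits of the phenylalanine enzyme, averaged 20.2 and 21.97 CPM per kb, a difference smaller than the SD of either over libraries (4.37 and 4.58). Sars varied least among the cytosolic genes in its ratio of highest to lowest library, 1.52, and Vars most, 6.98, with its highest library the mutant ND 2.

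**Figure D1:**
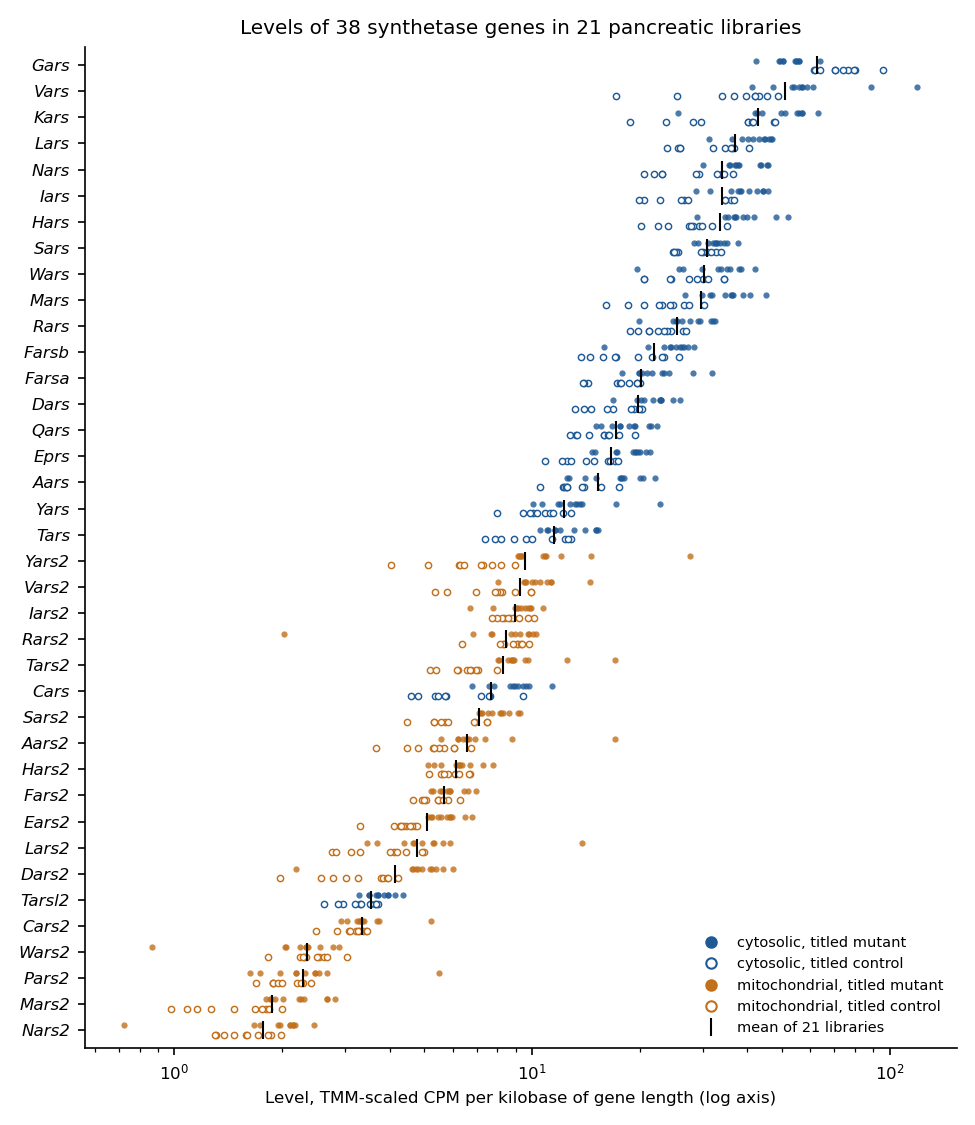
Level of each of the 38 synthetase genes in TMM-scaled CPM per kilobase (log axis), genes ordered by their mean over 21 libraries, with filled points for libraries titled mutant and open points for those titled control. Cytosolic genes fill ranks 1 to 19, and single high or low mitochondrial points such as Rars2 at 2.03 and Yars2 at 27.6 are from mutant ND 2.

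Summed over the 21 cytosolic genes, the level was 2856 to 3106 CPM in titled mutant LPD, 3227 to 3388 in titled mutant HFD and 2464 to 3283 in titled mutant ND libraries, against 1864 to 2728, 2523 to 2852 and 2052 to 2174 CPM in titled control LPD, HFD and ND libraries. The 3 titled control HFD libraries lay above all 3 titled control ND libraries, while in titled mutant libraries HFD overlapped ND. The 17 mitochondrial genes summed to 529.8 to 559, 585 to 596 and 531 to 804 CPM in titled mutant LPD, HFD and ND libraries, against 404 to 503, 484 to 534 and 413 to 442 CPM in titled control LPD, HFD and ND libraries. In bulk RNA of sorted cells, a change in the mixture of cells and a change in RNA per cell cannot be told apart.

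**Figure D2:**
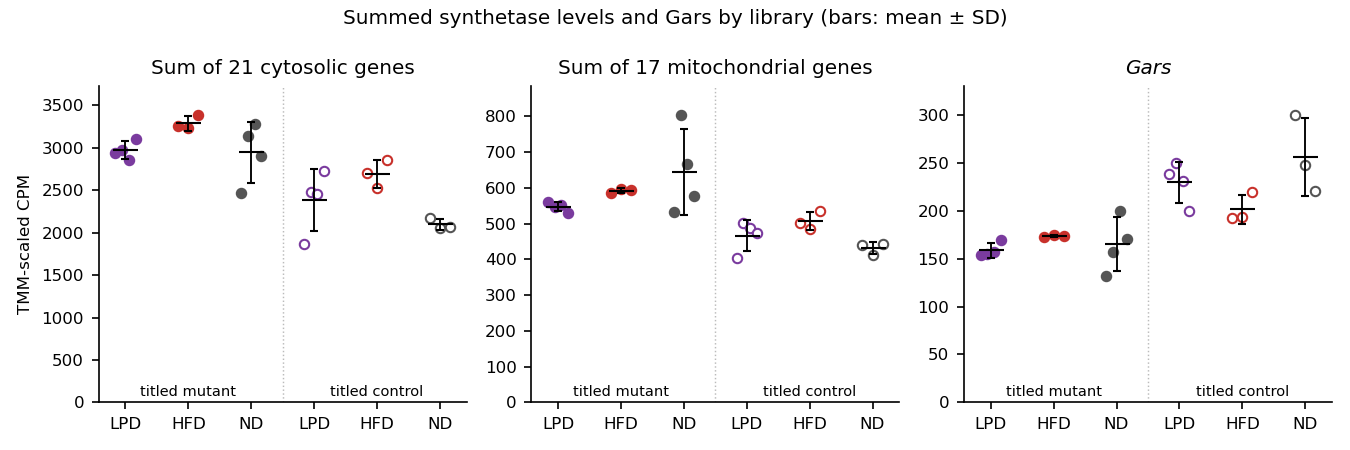
Summed TMM-scaled CPM of the 21 cytosolic and the 17 mitochondrial genes, and CPM of Gars, by library, with 1 point per library and bars for mean ± SD of each group of 3 or 4. The 3 control HFD libraries lie above the 3 control ND libraries in the cytosolic sum, and Gars lies lower in every titled mutant library than in every titled control library on each diet.

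Maternal HFD against ND was the diet comparison with most synthetase calls. In cells titled control, 7 of the 21 cytosolic genes rose (Lars, Eprs, Tars, Farsb, Kars, Nars and Iars) and 0 fell, by edgeR's quasi-likelihood test with Benjamini-Hochberg adjustment over 23630 genes and a threshold of 0.05. Of all genes tested 3.91% were called, 3.1% higher and 0.808% lower. Among mitochondrial genes 1 of 17 rose, Mars2. The median log2 fold change was 0.37 over the cytosolic and 0.16 over the mitochondrial genes, beside -0.01 over all genes. In 14 of the 21 cytosolic genes every HFD library lay above every ND library, beside 17% of all genes, and in 1, Gars, every HFD library lay below, beside 14.3% of all genes.

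Kars, the lysine enzyme, had 212, 179.9 and 214 CPM in titled control HFD libraries, against 83.9, 126 and 133 CPM in titled control ND libraries. The groups did not overlap, and control ND 2 was the lowest. Its log2 fold change was 0.82 ± 0.21 SE, adjusted p = 0.0325. Farsb, the beta subunit of the phenylalanine enzyme, had 67.5, 61.2 and 60.7 CPM in HFD against 35.9, 41.5 and 44.8 CPM in ND libraries, a log2 fold change of 0.63 ± 0.16 SE, adjusted p = 0.0263. Here too each HFD library was above each ND library. Its partner subunit Farsa had 89.00, 78.6 and 90.98 CPM in HFD against 89.2, 63.6 and 63.1 CPM in ND libraries, which overlapped through control ND 2, with a log2 fold change of 0.26 and an adjusted p of 0.443.

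Lars, the leucine enzyme, known also as a leucine sensor upstream of mTORC1, had 195, 197 and 217 CPM in titled control HFD libraries, against 138, 139.6 and 128 CPM in titled control ND libraries (log2 fold change 0.59 ± 0.14 SE, adjusted p = 0.0212). Eprs, which carries the glutamate and proline activities in 1 protein, had 295, 309 and 315 CPM in HFD against 198, 233 and 219.7 CPM in ND libraries (log2 fold change 0.50 ± 0.12 SE, adjusted p = 0.0213). Both belong to the multisynthetase complex, of whose 8 genes 4 rose and all 8 had every HFD library above every ND library. Tars, the threonine enzyme, had 75.8, 67.2 and 73.2 CPM in HFD against 43.7, 52.4 and 48.3 CPM in ND libraries (log2 fold change 0.58 ± 0.14 SE, adjusted p = 0.0214). Nars and Iars, for asparagine and isoleucine, rose by 0.58 and 0.62 on the log2 scale (adjusted p = 0.0325 and 0.0368). Mars2, the mitochondrial methionine enzyme, had 22.5, 20.4 and 20.7 CPM in HFD against 12.3, 13.1 and 14.3 CPM in ND libraries (log2 fold change 0.68 ± 0.19 SE, adjusted p = 0.0463).

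The 5 genes whose promoter windows hold TGATGNAA did not move alike in this comparison. Tars and Iars passed the test, Aars and Yars had log2 fold changes of 0.12 and -0.0037 with adjusted p-values of 0.801 and 0.995, and Gars had 192, 193 and 219 CPM in HFD against 299.9, 247 and 220.0 CPM in ND libraries, a log2 fold change of -0.34 with an adjusted p of 0.184. Kars, Farsb and Eprs passed and have windows without the motif. Of the 12 known ATF4 targets 5 rose and the median log2 fold change was 0.50, and of the 9 other cytosolic genes 2 rose and the median was 0.36.

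Acinar and cell cycle markers moved with these genes. Acinar markers summed to 25802 to 32108 CPM in titled control HFD libraries, against 7362 to 9706 CPM in titled control ND libraries, and 13 of 22 rose. Cell cycle markers summed to 2150.4 to 2272 against 1101 to 1570.3 CPM, and 5 of 12 rose. Endocrine markers summed to 2325 to 3944 against 4343 to 9529.7 CPM, and 1 of 16 fell, beside 3.1% of all genes called higher and 0.808% lower. Their part in the synthetase result was not tested.

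The cytosolic calls in titled control rested on several libraries. The count of 7 became 0 without control HFD 1, control HFD 3 or control ND 2, 1 without control HFD 2 or control ND 3, 4 without control ND 4 or mutant LPD 2, 11 without mutant ND 2, and 0 without the 3 mutant libraries that hold hormone counts. Those 3 were mutant LPD 1, mutant LPD 2 and mutant HFD 1, with endocrine marker sums of 456, 462 and 157 CPM. The other titled mutant libraries had 48.5 to 87.02 CPM. Mars2 lost its call in 17 of the 21 fits that left out 1 library, and without mutant ND 2 the mitochondrial count was 3. The direction was kept: over 33 alternatives the cytosolic median log2 fold change stayed between 0.31 and 0.56. With control ND 4, the only control ND library numbered under 25, as the sole reference, every HFD library was above it in 19 of 21 cytosolic genes, beside 30.3% of all genes, with a median log2 ratio of means of 0.43.

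In cells titled mutant, HFD against ND gave 1 call, beside 2.86% of all genes, 0.961% called higher and 1.9% lower. Wars, the tryptophan enzyme, had 132, 131 and 145 CPM in HFD libraries against 91.5, 67.7, 88.6 and 103 CPM in ND libraries. All 3 HFD libraries were above all 4 ND libraries, mutant ND 2 being the lowest. The log2 fold change was 0.63 ± 0.14 SE, adjusted p = 0.0217. In 10 of 21 cytosolic genes the HFD libraries all lay above the ND libraries, beside 11.3% of all genes, and in 0 they all lay below, beside 7.86%. The cytosolic median log2 fold change was 0.26 and the mitochondrial median -0.12. Of the mitochondrial genes edgeR called 0, and 2 had an unadjusted p under 0.05, beside 22.7% of all genes. DESeq2 called 1 of them and limma 0, beside 10% and 0.0889% of all genes. The mitochondrial median turned positive, at 0.07, with the 3 duplicate-rich ND libraries dropped and, at 0.23, on the FPKM scale, where the median of all genes was 0.14.

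The call on Wars was lost without mutant HFD 1, mutant HFD 2 or mutant HFD 3, and when the 3 ND libraries rich in duplicates were dropped. The cytosolic count was 0 in each of those cases, 5 without control LPD 1 and 2 without control LPD 4 or mutant ND 4. With mutant ND 1, the only titled mutant ND library numbered under 25, as the sole reference, all 3 HFD libraries were above it in 21 of 21 cytosolic genes, with a median log2 ratio of means of 0.40, and in 6 of 17 mitochondrial genes, beside 32% of all genes. Mutant ND 1 had the lowest cytosolic sum of the titled mutant ND libraries, 2464 CPM against 2898 to 3283 CPM. Against the 2 ND libraries of at most 70% duplicates they were above in 17 of 21 cytosolic genes, beside 19.1%, with a median of 0.25. Mesenchymal markers summed to 283 to 852 CPM in titled mutant HFD libraries, against 1079.6 to 9979 CPM in titled mutant ND libraries, and acinar markers to 37212 to 39562 against 14659 to 27397 CPM. Their part was not tested.

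The members that rose in titled control were also read in titled mutant libraries, whose ND reference is a separate set. Kars had 254, 247 and 282 CPM in titled mutant HFD libraries, against 189.6, 115, 196 and 188 CPM in titled mutant ND libraries (log2 fold change 0.60 ± 0.19 SE, adjusted p = 0.0896). Tars had 90.5, 88.9 and 88.9 CPM in HFD against 65.1, 62.2, 68.5 and 65.4 CPM in ND libraries (log2 fold change 0.45 ± 0.13 SE, adjusted p = 0.0553). Both were without overlap, and neither passed. Eprs had 378, 363 and 387 CPM in HFD against 272, 266, 312 and 313 CPM in ND libraries (log2 fold change 0.37 ± 0.11 SE, adjusted p = 0.0653), also without overlap. Lars had 247, 241 and 249.9 CPM in HFD against 168, 195, 251 and 208 CPM in ND libraries, where mutant ND 3 was above every HFD library (log2 fold change 0.26 ± 0.13 SE, adjusted p = 0.236). Farsb had 71.8, 67.9 and 69.8 CPM in HFD against 55.5, 41.8, 61.4 and 64.2 CPM in ND libraries, with a log2 fold change of 0.32 and an adjusted p of 0.189. Nars had 190.0, 198 and 199 CPM in HFD against 131, 155, 161 and 156 CPM in ND libraries. Iars had 242, 234 and 225 CPM in HFD against 166, 152, 202 and 189 CPM in ND libraries. Nars and Iars were without overlap. Mars2 had 31.8, 30.1 and 25.2 CPM in HFD against 21.6, 20.99, 30.3 and 26.1 CPM in ND libraries, which overlapped. Wars, in turn, had 119, 104 and 118 CPM in titled control HFD libraries against 71.1, 84.6 and 84.1 CPM in titled control ND libraries, without overlap (log2 fold change 0.51 ± 0.15 SE, adjusted p = 0.0618).

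**Figure D3:**
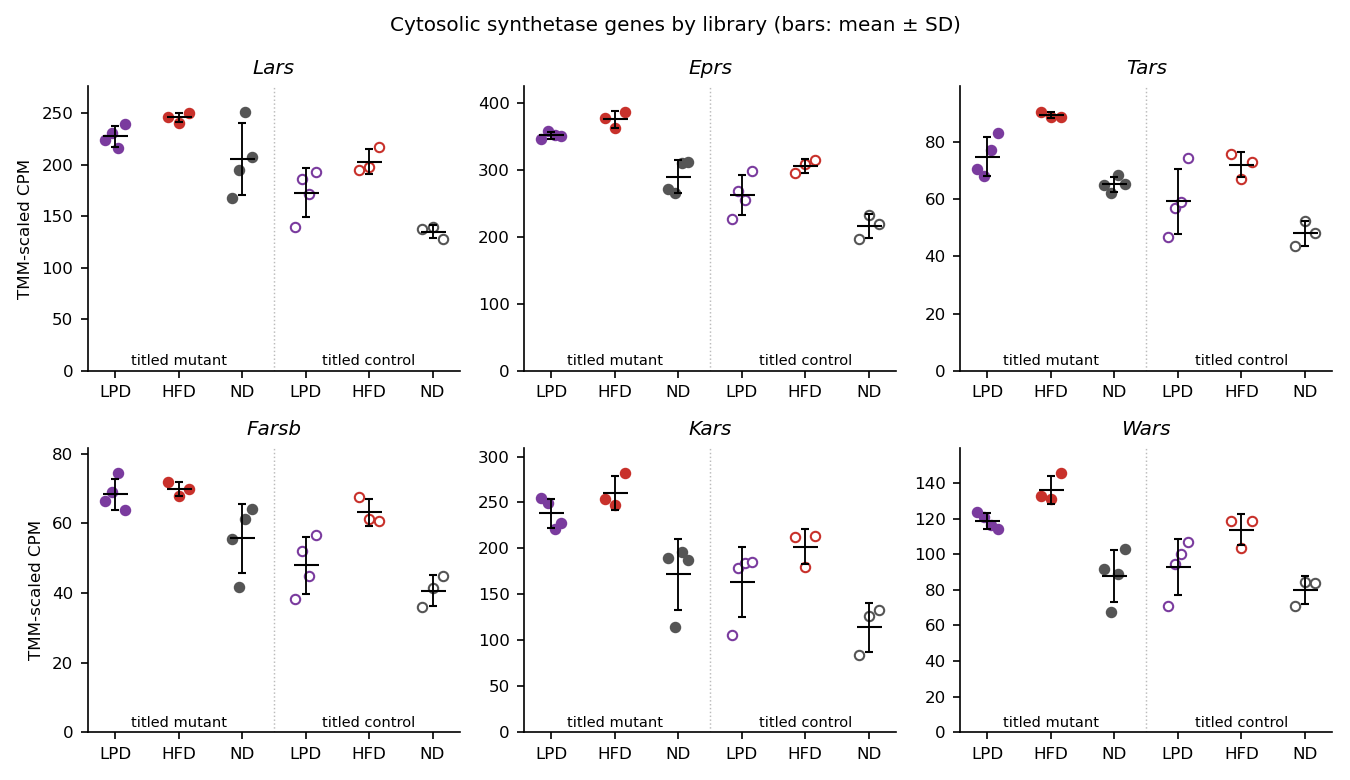
TMM-scaled CPM of Lars, Eprs, Tars, Farsb, Kars and Wars by library, on axes that start at 0, with 1 point per library and bars for mean ± SD of 3 or 4 libraries. In titled control the HFD points lie above all ND points for all 6 genes, and control LPD 1 is the lowest LPD point in each.

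Maternal LPD against ND, which shares its ND libraries with the HFD comparisons, gave no synthetase call. In titled control, 0 of 38 members and 0% of all genes passed by edgeR. There, 5 cytosolic and 0 mitochondrial members had an unadjusted p under 0.05, beside 6.57% of all genes. DESeq2 and limma also called 0 members, beside 0.0296% and 0% of all genes. In 0 cytosolic genes were the groups without overlap, beside 2.41% of all genes without overlap and higher and 2.01% lower. The medians were 0.20 over cytosolic and 0.07 over mitochondrial genes. Lars had 139, 186, 172 and 193 CPM in titled control LPD libraries, against 138, 139.6 and 128 CPM in titled control ND libraries (log2 fold change 0.35 ± 0.13 SE, adjusted p = 0.685). Kars had 106, 179, 184 and 185 CPM in LPD against 83.9, 126 and 133 CPM in ND libraries (log2 fold change 0.52 ± 0.20 SE, adjusted p = 0.692). In both, control LPD 1 lay within the ND range and the other 3 LPD libraries above it. Without control LPD 1 the cytosolic count was 1.

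In titled mutant, LPD against ND also called 0 of 38 members by edgeR, beside 1.05% of all genes, 0.41% called higher and 0.643% lower. The LPD libraries all lay above the ND libraries in 5 cytosolic genes and below in 0, beside 7.37% and 4.47% of all genes. There were 7 cytosolic and 5 mitochondrial members with an unadjusted p under 0.05, DESeq2 called 2 of each and limma 0, beside 22.1% of all genes at that unadjusted p, 9.53% called by DESeq2 and 0.0846% by limma. Wars had 123, 121, 116 and 114 CPM in titled mutant LPD libraries, against 91.5, 67.7, 88.6 and 103 CPM in titled mutant ND libraries, without overlap (log2 fold change 0.43 ± 0.13 SE, adjusted p = 0.0762). Yars2, the mitochondrial tyrosine enzyme, had 29.04, 28.7, 29.2 and 29.3 CPM in LPD against 29.6, 87.02, 46.00 and 34.5 CPM in ND libraries (log2 fold change -0.75 ± 0.24 SE, adjusted p = 0.0856). Mutant ND 2 stood above the other ND libraries in Yars2, and mutant ND 1 lay next to the LPD values. Of the cytosolic genes 13 were above 0 and 8 below, with a median log2 fold change of 0.06, which ran from -0.002 without mutant ND 1 to 0.44 on the FPKM scale, where the median of all genes was 0.21. With mutant ND 1, the titled mutant ND library of lowest cytosolic sum, as the sole reference, all 4 LPD libraries were above it in 17 of 21 cytosolic genes, beside 25.6% of all genes, with a median log2 ratio of means of 0.28. Against the ND libraries of at most 70% duplicates they were above in 9, beside 12.2%, with a median of 0.19. The cytosolic count was 2 without mutant ND 1 and 1 without mutant ND 4 or control LPD 1, and the mitochondrial count was 2 without mutant ND 1 or mutant ND 4.

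**Figure D4:**
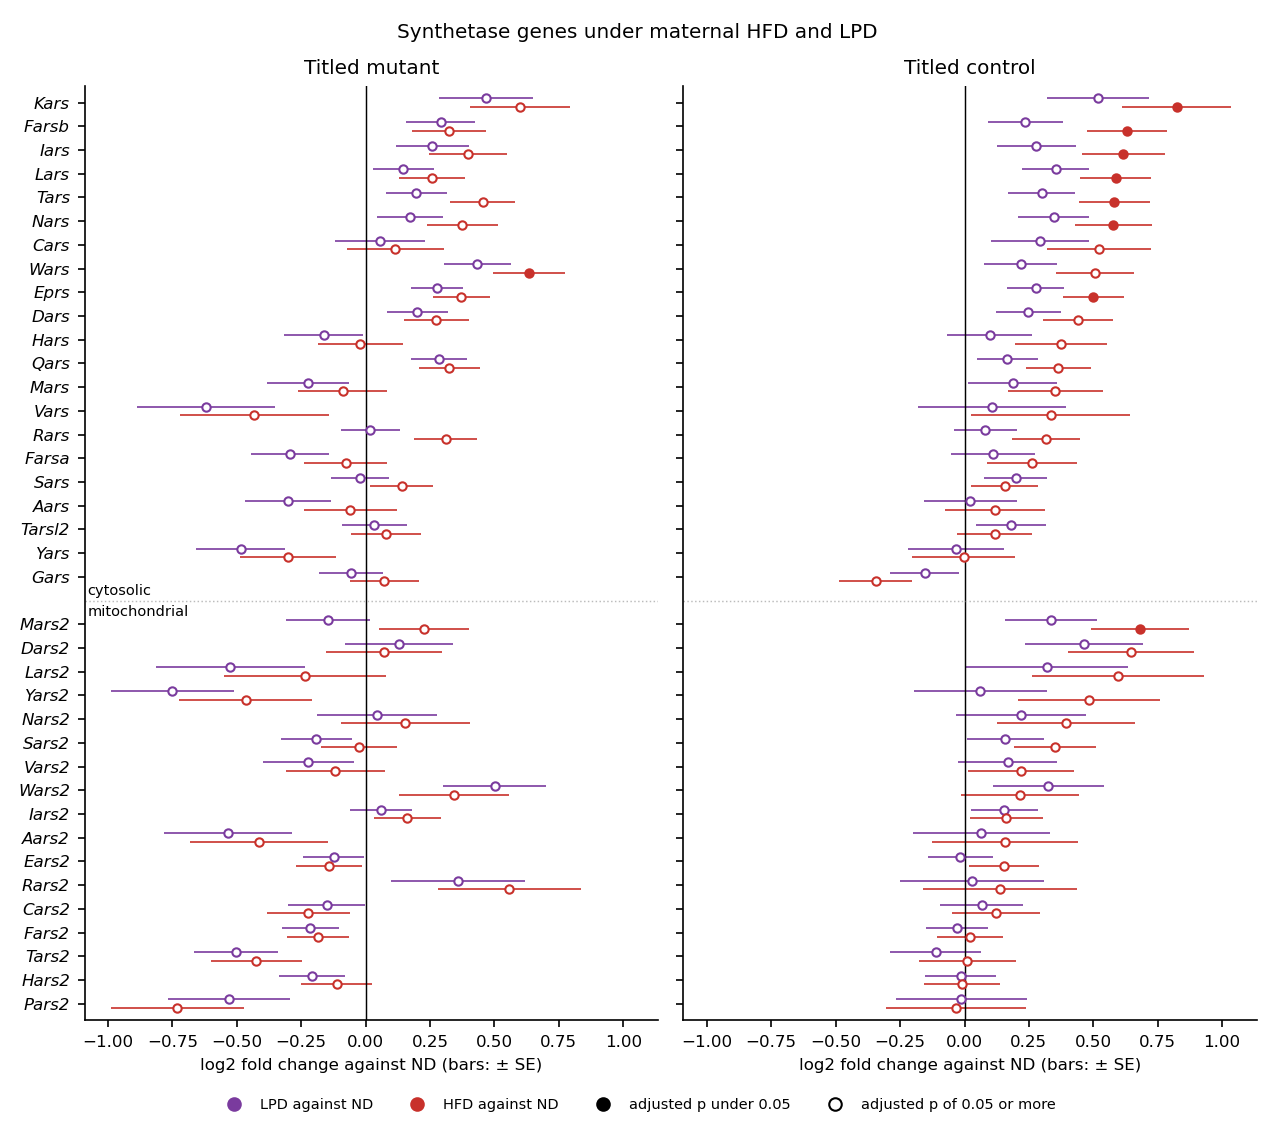
Log2 fold change against ND (x axis, bars ± SE) for each synthetase gene, in titled mutant (left) and titled control (right) libraries, with LPD in purple, HFD in red and filled points for an adjusted p under 0.05. The filled points are 7 cytosolic genes and Mars2 for HFD in titled control and Wars for HFD in titled mutant, and both diets share the ND libraries within a panel.

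LPD against HFD called 0 of 38 members in either title by edgeR, DESeq2 and limma, beside 0% of all genes in each title by edgeR. DESeq2 called 0.102% of all genes in titled control and 0.00423% in titled mutant, and limma 0.0127% and 0%. In titled mutant all 21 cytosolic genes had a negative log2 fold change, with a median of -0.14, and in 11 of them every LPD library lay below every HFD library, beside 6.94% of all genes. In 0 cytosolic genes did every LPD library lie above, beside 4.85%. A member of each compartment had an unadjusted p under 0.05, beside 2.67% of all genes. Rars, the arginine enzyme, had 81.8, 82.1, 84.7 and 89.3 CPM in titled mutant LPD libraries, against 102, 105 and 104 CPM in titled mutant HFD libraries (log2 fold change -0.29 ± 0.12 SE, adjusted p = 1.0). Mars2 had 20.4, 22.8, 25.6 and 20.9 CPM in LPD against 31.8, 30.1 and 25.2 CPM in HFD libraries (log2 fold change -0.37 ± 0.17 SE, adjusted p = 1.0), with an overlap at mutant LPD 3 and mutant HFD 3. On the FPKM scale 18 of the 21 cytosolic genes were negative. In the same comparison 21 of 22 acinar markers were negative, with a median of -0.21, while 16 of 16 endocrine, 12 of 12 endothelial and 11 of 11 blood and immune markers were positive, with medians of 2.21, 0.58 and 1.14, and none of these lists had a gene that passed. The LPD libraries were split. Endocrine markers summed to 456, 462, 48.5 and 49.2 CPM in LPD against 157, 60.6 and 53.2 CPM in HFD libraries. Blood and immune markers summed to 66.4, 68.2, 241 and 190 CPM in LPD against 111, 101 and 57.8 CPM in HFD libraries. The part of these markers was not tested.

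In titled control, LPD against HFD left 18 of 21 cytosolic genes negative, with a median of -0.23, and 3 cytosolic members had an unadjusted p under 0.05, beside 6.19% of all genes. Every LPD library lay below every HFD library in 3 cytosolic genes and above in 0, beside 5.48% and 3.99% of all genes. Farsb had 38.2, 52.00, 44.9 and 56.7 CPM in titled control LPD libraries, against 67.5, 61.2 and 60.7 CPM in titled control HFD libraries, without overlap (log2 fold change -0.40 ± 0.14 SE, adjusted p = 0.756). Iars had 109, 140.4, 144 and 194 CPM in LPD against 190.4, 183 and 182 CPM in HFD libraries (log2 fold change -0.34 ± 0.15 SE, adjusted p = 0.786). Control LPD 4 was above every HFD library for Iars, and control LPD 1 was the lowest. Acinar markers were lower too, at 6118 to 18739 CPM in titled control LPD libraries, against 25802 to 32108 CPM in titled control HFD libraries, with 22 of 22 negative, a median log2 fold change of -1.02 and 17 without overlap, and 12 of 12 cell cycle markers were negative with a median of -0.23. Their part was not tested. Gars was among the 3 positive genes, at 0.19 on the log2 scale with an adjusted p of 0.903.

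Whether the diet effects differed between titles was tested as an interaction. No member passed for HFD against ND, LPD against ND or LPD against HFD by edgeR, DESeq2 and limma. Of all genes, edgeR and limma called 0% in each, and DESeq2 called 0.0466%, 0% and 0.0169%. At an unadjusted p under 0.05 there were 1 cytosolic and 1 mitochondrial member for HFD against ND, 0 and 1 for LPD against ND, and 0 and 0 for LPD against HFD, beside 7.1%, 5.85% and 1.06% of all genes. For HFD against ND the smallest p-values were those of Yars2, with a difference of -0.95 ± 0.38 SE, adjusted p = 0.662, and Gars, with 0.42 ± 0.19 SE, adjusted p = 0.695. For LPD against ND they were those of Yars2 (-0.81 ± 0.35 SE, adjusted p = 0.832) and Mars2 (-0.48 ± 0.24 SE, adjusted p = 0.832). For LPD against HFD they were those of Farsb (0.36 ± 0.20 SE, adjusted p = 1.0) and Gars (-0.32 ± 0.19 SE, adjusted p = 1.0). The calls of HFD against ND in titled control and their lack in titled mutant are therefore not shown to differ.

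The libraries titled mutant were set against those titled control within each diet. On ND, 15 of 21 cytosolic genes were higher in titled mutant and 1, Gars, was lower, and 9 of 17 mitochondrial genes were higher, beside 13.7% of all genes called higher and 13.3% lower. Median log2 fold changes were 0.52 over cytosolic and 0.63 over mitochondrial genes. On the FPKM scale, where the median of all genes was -0.23, the cytosolic median turned to -0.02, with 17 of 21 genes still above the median of all genes. The ND libraries are also the reference of the diet comparisons above, so the results are not independent of them.

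Yars2 had 29.6, 87.02, 46.00 and 34.5 CPM in titled mutant ND libraries, against 19.8, 16.1 and 20.3 CPM in titled control ND libraries (log2 fold change 1.39 ± 0.27 SE, adjusted p = 0.000553). Mutant ND 2 was the highest, and all 4 were above the control libraries. Mars2 had 21.6, 20.99, 30.3 and 26.1 CPM in titled mutant against 12.3, 13.1 and 14.3 CPM in titled control libraries (log2 fold change 0.91 ± 0.18 SE, adjusted p = 0.000759). Mars, the cytosolic methionine enzyme, had 91.5, 139, 155 and 133 CPM in titled mutant against 77.5, 63.7 and 70.3 CPM in titled control libraries (log2 fold change 0.88 ± 0.18 SE, adjusted p = 0.000793). The genes of both methionine enzymes were thus without overlap. Tars2 and Lars were higher by 0.84 ± 0.18 and 0.60 ± 0.13 on the log2 scale (SE, adjusted p = 0.00131 and 0.00152). Vars had 264, 671, 499 and 330.3 CPM in titled mutant against 236, 142 and 190.1 CPM in titled control libraries, where mutant ND 2 and mutant ND 3 were far above the rest (log2 fold change 1.22 ± 0.30 SE, adjusted p = 0.00403).

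Gars was the only member called lower in titled mutant, on ND and on LPD. It had 132, 157, 199.5 and 171 CPM in titled mutant ND libraries, against 299.9, 247 and 220.0 CPM in titled control ND libraries (log2 fold change -0.63 ± 0.13 SE, adjusted p = 0.00115). On LPD it had 153, 155, 157 and 169.6 CPM in titled mutant against 239, 249.6, 231 and 199.7 CPM in titled control libraries (log2 fold change -0.53 ± 0.12 SE, adjusted p = 0.00438). On HFD it had 172, 174 and 174 CPM in titled mutant against 192, 193 and 219 CPM in titled control libraries (log2 fold change -0.22 ± 0.14 SE, adjusted p = 0.589). In all 3 diets every titled mutant library lay below every titled control library, and only the difference on HFD did not pass. The ND call held in all 33 alternatives, and the LPD call in 31. Gars was negative in all 33 for both.

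On LPD, 9 of 21 cytosolic genes were higher in titled mutant (Eprs, Farsb, Iars, Nars, Qars, Lars, Dars, Hars and Kars), Gars was lower, and 1 of 17 mitochondrial genes, Ears2, was higher, beside 5.22% of all genes called higher and 10.4% lower. Eprs had 346, 359, 353 and 351 CPM in titled mutant LPD libraries, against 227, 269.7, 256 and 299 CPM in titled control LPD libraries (log2 fold change 0.42 ± 0.10 SE, adjusted p = 0.00606). Iars had 203, 199, 214 and 233 CPM in titled mutant against 109, 140.4, 144 and 194 CPM in titled control libraries (log2 fold change 0.53 ± 0.14 SE, adjusted p = 0.0114). Control LPD 1 was the lowest and control LPD 4 the nearest to the titled mutant libraries in each. Ears2, the mitochondrial glutamate enzyme, had 30.3, 28.1, 30.7 and 26.3 CPM in titled mutant against 17.03, 22.9, 23.5 and 22.5 CPM in titled control libraries (log2 fold change 0.42 ± 0.12 SE, adjusted p = 0.0163). Farsb and Nars were higher by 0.51 and 0.44 on the log2 scale (adjusted p = 0.0112 and 0.0221). Of the 9 cytosolic genes higher on LPD, 8 were also among the 15 higher on ND, which is 88.9% of the LPD and 53.3% of the ND genes, from separate libraries. With 15 of all 21 cytosolic genes higher on ND, a large overlap is likely for 9 genes drawn from the 21. The overlap is therefore not read as a result about these genes.

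On HFD, 0 of 38 members passed by edgeR, beside 5.78% of all genes, 0.14% called higher and 5.64% lower. At an unadjusted p under 0.05 there were 5 cytosolic and 2 mitochondrial members, beside 14% of all genes. DESeq2 called 1 cytosolic gene and limma 0, beside 7.67% and 3.58% of all genes. Every titled mutant HFD library nevertheless lay above every titled control HFD library in 19 of 21 cytosolic genes, beside 17.5% of all genes, and the cytosolic median log2 fold change was 0.31. Nars had 190.0, 198 and 199 CPM in titled mutant HFD libraries, against 148, 144 and 150.2 CPM in titled control HFD libraries (log2 fold change 0.41 ± 0.15 SE, adjusted p = 0.145). Eprs had 378, 363 and 387 CPM in titled mutant against 295, 309 and 315 CPM in titled control libraries (log2 fold change 0.29 ± 0.12 SE, adjusted p = 0.215). With only these 6 libraries in the fit, 15 cytosolic genes passed, 14 of them higher, and 3 mitochondrial genes passed, beside 17.1% of all genes in that fit, 5.74% higher and 11.3% lower. Libraries of the same number deviated together between these groups, and with the number as a replicate block in the fit of the 6, a setting added after the data were seen, 19 cytosolic genes passed, 18 of them higher, and 7 mitochondrial genes were higher, beside 31.3% of all genes, 13.1% higher and 18.3% lower.

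**Figure D5:**
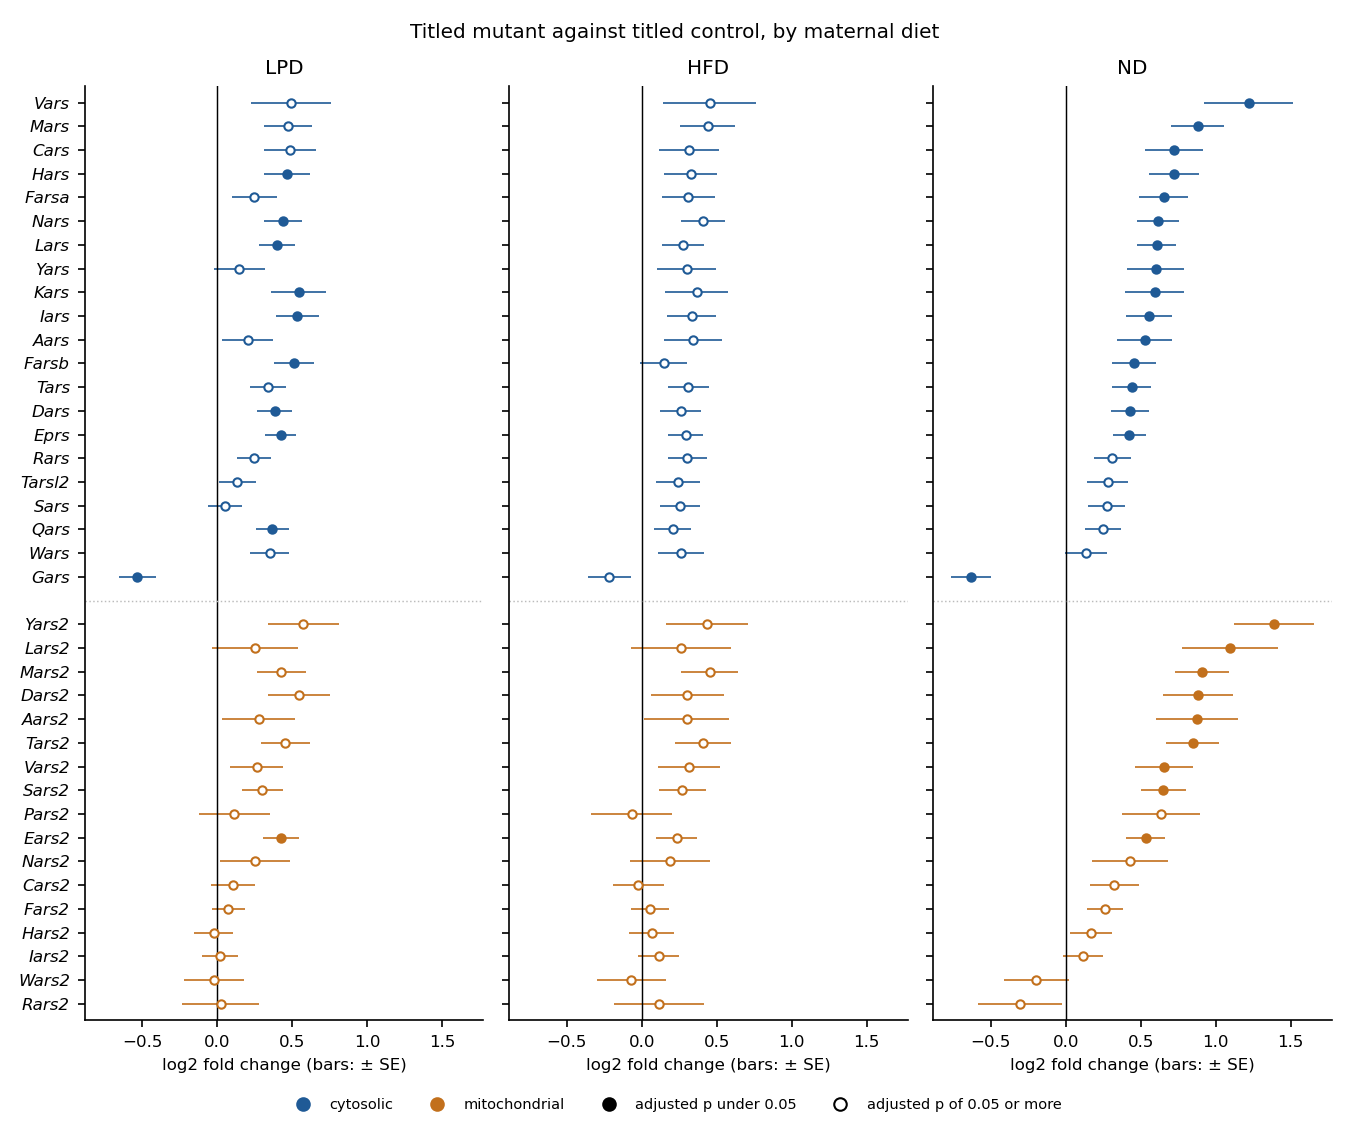
Log2 fold change of titled mutant against titled control (x axis, bars ± SE) for each synthetase gene on LPD, HFD and ND, with filled points for an adjusted p under 0.05. Gars is the lowest cytosolic gene in each panel, and 20 of 21 cytosolic genes lie above 0 in each.

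Markers of other cells and of the cell cycle differed between the titles too. Cell cycle markers summed to 2599 to 3038, 2705 to 2894 and 2483 to 2787 CPM in titled mutant LPD, HFD and ND libraries, against 1210.3 to 2425, 2150.4 to 2272 and 1101 to 1570.3 CPM in titled control LPD, HFD and ND libraries, and 10, 0 and 12 of the 12 were higher. Of the 22 acinar markers 14, 0 and 13 were higher on LPD, HFD and ND, beside 5.22%, 0.14% and 13.7% of all genes. Mesenchymal markers summed to 1079.6 to 9979 CPM in titled mutant ND libraries, against 804 to 2192 CPM in titled control ND libraries, with the highest sums in mutant ND 2 and mutant ND 3. Their part in the synthetase differences was not tested. The cytosolic count on ND, 16 in both directions, was 10 without control ND 2, 9 without mutant ND 3 and 3 with the 3 duplicate-rich ND libraries dropped. On LPD the count of 10 was 2 without control LPD 1, 4 without mutant LPD 2 or control ND 4, 6 without mutant LPD 1, mutant LPD 4 or control LPD 3, and 0 without the 3 mutant libraries that hold hormone counts. Ears2 lost its call without control LPD 1, mutant LPD 1, mutant LPD 2 or mutant LPD 3, while the mitochondrial count was 2 without mutant ND 1 and 4 without mutant ND 2.

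Genes around the synthetases were read from fixed lists. Of 12 partner and tRNA-handling genes, Xpot, the export receptor of tRNA, was the only one called under HFD against ND in titled control (log2 fold change 0.62 ± 0.14 SE, adjusted p = 0.0152), beside 3.91% of all genes. In the other diet comparisons 0 of 12 were called by edgeR, beside 0% to 2.86% of all genes. There, 1 to 4 had an unadjusted p under 0.05, beside 2.67% to 22.7% of all genes. In titled mutant against titled control on ND, 7 of the 12 were higher, beside 13.7% of all genes called higher and 13.3% lower. Among the 7 were the scaffold genes Aimp2 and Eef1e1 of the multisynthetase complex (0.65 ± 0.19 and 0.73 ± 0.18 on the log2 scale, SE). Sepsecs, which completes selenocysteine on its tRNA, was lower (-1.11 ± 0.22 SE, adjusted p = 0.000660), and Pstk, which acts just before it, was higher (1.09 ± 0.22 SE, adjusted p = 0.000823). Of the 4 genes of mitochondrial transamidation and formylation, which supply glutaminyl-tRNA and formylmethionyl-tRNA where no synthetase does, 0 were called in any diet comparison, beside 0% to 3.91% of all genes. Gatb was higher in titled mutant on ND (0.45 ± 0.13 SE, adjusted p = 0.0110).

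Of 18 genes of the ATF4 pathway and of amino acid synthesis or uptake, 5 rose (Asns, Phgdh, Shmt2, Aldh18a1 and Pycr1) and 1 fell (Sesn2) under HFD against ND in titled control, beside 3.1% and 0.808% of all genes. Asns, asparagine synthetase and a known ATF4 target, had 219, 206 and 189 CPM in titled control HFD libraries, against 71.4, 74.4 and 73.7 CPM in titled control ND libraries (log2 fold change 1.49 ± 0.28 SE, adjusted p = 0.00564). Shmt2, the mitochondrial serine hydroxymethyltransferase, rose by 1.26 ± 0.24 (SE, adjusted p = 0.00625) and Aldh18a1, of proline synthesis, by 0.75 ± 0.16 (SE, adjusted p = 0.0134) on the log2 scale. Atf4 itself had 149, 130.1 and 179 CPM in HFD against 139, 106 and 103 CPM in ND libraries, which overlapped (log2 fold change 0.39 ± 0.18 SE, adjusted p = 0.233). Under LPD against ND in titled control, Asns had 61.6, 163, 154 and 175 CPM in LPD libraries (log2 fold change 0.92 ± 0.26 SE, adjusted p = 0.612). In titled mutant, Asns had 240.4, 236, 211 and 222 CPM in LPD and 267, 257 and 252 CPM in HFD libraries, against 115, 102, 199 and 197 CPM in ND libraries, with adjusted p-values of 0.165 and 0.0976. No gene of this list was called by edgeR in the other 5 diet comparisons, beside 0% to 2.86% of all genes. At an unadjusted p under 0.05 there were 0 to 8 of the 18, beside 2.67% to 22.7% of all genes. From a list of 6 MYC and mTOR companions, Myc and Eif4ebp1 rose under HFD against ND in titled control. Their log2 fold changes were 1.26 and 0.87 (adjusted p = 0.0267 and 0.0387), beside 3.1% of all genes called higher. Myc is a transcription factor known to drive genes of protein synthesis, and Eif4ebp1 encodes an inhibitor of translation initiation. Mycn, Mtor and Rptor overlapped between these HFD and ND libraries. In Rps6kb1 every HFD library lay above every ND library.

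A pair of hypothalamic libraries, 1 titled mutant and 1 titled control, gave a level in another tissue, with no test since each title has 1 library. Scaled together with the pancreatic libraries, the cytosolic genes summed to 1235 CPM in the library titled mutant and 1283 CPM in that titled control. Both were below the 1902 to 3315 CPM of the 21 pancreatic libraries. On the FPKM scale the sums were 333 and 353, above the 239 of mutant ND 2. The next lowest pancreatic library, control ND 2, had 417. These hypothalamic libraries had 82.33% and 77.5% duplicates, as many as the duplicate-rich ND libraries, with 8.27% and 7.62% of counts on Gm26917, and the part of duplicates in these levels was not tested. On that joint scaling both hypothalamic values lay below the whole pancreatic range in 16 of 21 cytosolic and 10 of 17 mitochondrial genes. They lay above it in 0. The share of all genes is not given here, so these counts are not read as a result about the synthetases. On the FPKM scale Hars2 had 8.45 and 9.52 in the hypothalamic libraries titled mutant and control, above the pancreatic maximum of 8.26. Over cytosolic genes the median ratio of pancreatic to hypothalamic level was 2.28, and over mitochondrial genes 1.71. Kars had 55.2 CPM in the titled mutant and 54.5 CPM in the titled control hypothalamic library, against a pancreatic range of 84.8 to 276 CPM. Sars, Aars and Yars were within the pancreatic range in both hypothalamic libraries.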

How the data were processed

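RNA from sorted cells was read by the authors as strand-specific, rRNA-depleted libraries, and the deposited tables hold raw counts per gene and FPKM per gene. Per the submitters' processing notes, cutadapt 2.10, STAR 2.7.8a, featureCounts 2.0.2 and the GRCm38.p6 build were used; no source used here states the strand setting of the counting, and overlapping genes such as Hars and Hars2 may share reads. The percent of duplicate reads per library is the authors' deposited value. Counts were fitted with edgeR 4.0.16 (R 4.3.3), using TMM scaling, filterByExpr and the robust quasi-likelihood test, over 21 libraries in 6 groups, with Benjamini-Hochberg adjustment over 23630 genes and a threshold of 0.05. Between titles on HFD the 3 same-numbered pairs deviated together (r = 0.186, 0.496 and 0.551), a pairing that comes from the data and from no label, so a fit with the number as a block was added. Interactions were contrasts in the same fit. DESeq2 1.42.0, limma 3.58.1 on log2(FPKM + 1) and other settings were alternatives. The fit was tested on simulated data. The control library of mixed genotype and the hypothalamic libraries entered no comparison. The members and lists were chosen with earlier results of these data known; full statistics are given for up to 5 passing members per direction of smallest adjusted p in each comparison or, where none passed, the 2 of smallest p, and up to 3 passing genes of other lists per diet comparison. Other genes with values (Farsa, Vars, the calls made in the other title and the genes of the tRNA-handling lists between titles) were chosen after their values were seen. Titled mutant HFD 1 and 2, and LPD 1 and 2, were more alike than other replicate pairs (chi-square per gene 4.40 and 4.70, next 17.3) but differed beyond sampling noise; they were kept apart, and summed as alternatives. No test of the sum over members was made. Total counts ran from 17922240 to 44688814, and low counts limit the lowest mitochondrial genes most. A further promoter match is not reported here.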

Additional observations from a re-analysis of the deposited data

Results flagged for a closer look

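In 4 of 51 checks, 1 library lay far from the other 3 by its gap to the nearest, relative to the group range. The checks covered 17 items in the same 3 groups of 4 libraries, titled mutant LPD, titled mutant ND and titled control LPD. Chance gives this pattern in about 1 of 20 checks taken singly. These checks share libraries and are not independent, so 4 of 51 is not compared with that rate. Kars had 115 CPM in mutant ND 2, against 188 to 196 CPM in the other titled mutant ND libraries. Kars had 106 CPM in control LPD 1, against 179 to 185 CPM in the other titled control LPD libraries. Ears2 had 17.03 CPM in control LPD 1, against 22.5 to 23.5 CPM in the others. Nars had 189 CPM in mutant LPD 4, against 162 to 165 CPM in the other titled mutant LPD libraries. The control ND library of mixed genotype, which entered no comparison, had a mitochondrial synthetase sum of 689 CPM, against 421 to 454 CPM in the titled control ND libraries on the same scaling. That library had 80.22% duplicates, 56.8% of its counts on Gm26917 and 16299 genes detected, and mutant ND 2, with 79.38%, 66.9% and 17861, had a sum of 787 CPM. What sets these libraries apart was not tested.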

How the results depend on the processing

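No gene given with full statistics changed sign in its comparison under any alternative, but class medians did: the mitochondrial median turned positive for HFD against ND (0.07 without duplicate-rich libraries, 0.23 with limma on FPKM) and for LPD against ND (0.20 with limma) in titled mutant, the cytosolic median fell to -0.002 for LPD against ND in titled mutant without mutant ND 1, and to -0.02 between titles on ND with limma. Under HFD against ND in titled control, the 7 cytosolic calls became 2 after dropping the 3 duplicate-rich ND libraries, 1 with library number as a covariate, 0 without the 3 hormone-containing mutant libraries, 4 with mutant LPD 1 and 2 summed and 0 with limma; the 1 mitochondrial call became 2 with only the compared groups and 0 with DESeq2 size factors, no filter, no high-duplicate libraries, the covariate, no hormone libraries, summed LPD or summed HFD libraries (chosen after seeing the data), or limma. Under HFD against ND in titled mutant, the 1 cytosolic call became 3 with size factors, 2 with the replicate block, 5 with DESeq2 and 0 with only the compared groups, the mixed library as control, no high-duplicate libraries, the covariate, no hormone libraries, summed HFD libraries or limma, and DESeq2 called 1 mitochondrial gene. Under LPD against ND in titled mutant, DESeq2 called 2 genes of each compartment. Between titles on ND, 16 cytosolic calls became 4 with only the compared groups, 3 without high-duplicate libraries, 10 without hormone libraries and 2 with limma, and 9 mitochondrial calls became 1, 5 with the mixed library and 1 with limma. Between titles on HFD, 0 became 15 with only the compared groups and 1 with DESeq2, and for mitochondrial genes 3 and, without high-duplicate libraries, 1; with only the compared groups and a replicate block, added after seeing the data, they became 19 and 7. Between titles on LPD, 10 became 4 without filter, 5 with the compared groups, 2 with the mixed library, 0 without hormone libraries, 4 with summed LPD libraries and 0 with limma; the 1 mitochondrial call became 4 with the compared groups, 2 with the replicate block, 4 without high-duplicate libraries, and 0 without filter, with the mixed library, without hormone libraries or with summed LPD libraries. Leaving out 1 library gave 0 to 11 cytosolic and 0 to 3 mitochondrial calls for HFD against ND in titled control, 0 to 5 and 0 to 1 in titled mutant, 0 to 1 and 0 for LPD against ND in titled control, 0 to 2 and 0 to 2 in titled mutant, 9 to 16 and 7 to 10 between titles on ND, 0 to 1 and 0 on HFD, and 2 to 14 and 0 to 4 on LPD, and 0 elsewhere. The cause was not tested. Outside titles on HFD, same-numbered libraries did not all deviate together in any comparison (over all groups r exceeded 0.1 in 15 of 46 pairs, from -0.524 to 0.619); the replicate block in the fit of 21 libraries changed no other count by over 1.5 times. The median of all genes on the FPKM scale shifted by -0.23 between titles on ND, and by 0.21 and 0.14 for LPD and HFD against ND in titled mutant. Groups of 3 or 4 libraries and the 5 of 7 ND libraries numbered 25 or above limit the diet comparisons.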
